A study of Mus musculus with 9 samples.

Results

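Glutathione, thioredoxin and the enzymes that use them were followed in mouse heart RNA by 47 genes out of the 13539 listed. The members were taken by name. They held every listed glutathione S-transferase whose symbol gives the alpha, kappa, mu, omega, pi, theta or zeta class (17 genes). Every listed glutathione peroxidase (5), peroxiredoxin with sulfiredoxin (7) and superoxide dismutase with catalase (4) was also taken. The others were the 5 genes of glutathione synthesis and recycling, the 5 of the thioredoxin system and 4 genes of the NRF2 axis. The hearts came from 12-week-old male C57BL/6JOlaHsd mice in 3 groups of 3 libraries. The first group lacked OMA1, a protease of the mitochondrial inner membrane, and received isoproterenol, a beta-adrenergic agonist, at 10 mg/kg per day from osmotic minipumps for 7 days. The second was wild type and received the same treatment. The third lacked OMA1 and was left untreated, and the labels give it no pump, so drug and pump cannot be told apart. No untreated wild-type group is part of this comparison, and a change of the drug response by genotype was therefore not tested. The labels do not number animals, and p-values measure the spread between these libraries.

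Cells remove superoxide in steps. Superoxide dismutases turn it into hydrogen peroxide, and catalase, glutathione peroxidases and peroxiredoxins turn the peroxide into water. Glutathione and thioredoxin supply the electrons and are recharged by reductases from NADPH, which in heart mitochondria comes partly from the transhydrogenase NNT. Separate sets of these enzymes work in the cytosol, in mitochondria and in the secretory pathway. Many of the cytosolic genes are induced by the transcription factor NRF2, which KEAP1 holds in check and which binds the antioxidant response element.

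The core of that element, TGACNNNGC on either strand, was sought in RefSeq promoter windows of GRCm38.p6 that run from 250 bases before to 50 after a start. Of the 47 members, 39 had a window, and 9 of the 39 (23.1%) held the core, against 14.0% of 27025 genes. A gene with several windows counted when any of them matched. By window, 9 of the members' 51 held the core, against 12.4% of 32851. Elements further from a start were not sought. The 9 genes were Gsta3, Gstm5, Gstm7, Gclm, Nfe2l2, Prdx1, Srxn1, Txnrd1 and Sod1. Stretches around the core are shown for 4 of the 5 that passed the test in at least 1 comparison below. They are written along the plus strand of the chromosome and of the gene, in lower case with the match in capitals. In all 4 the core TGACNNNGC lies on the minus strand, so the capitals read as its reverse complement. The stretches let the letters be seen beside the RNA values of those genes. Prdx1 lies at chr4:116685379-116685538, the window of a second Txnrd1 start at chr10:82859016-82859175, Sod1 at chr16:90220592-90220751 and Srxn1 at chr2:152105542-152105571. The first 3 stretches lie before the start, and the match of Srxn1 begins 29 bases after it.
Prdx1: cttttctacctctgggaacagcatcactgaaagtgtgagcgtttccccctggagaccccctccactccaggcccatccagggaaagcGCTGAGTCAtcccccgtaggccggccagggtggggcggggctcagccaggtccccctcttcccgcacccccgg
Txnrd1: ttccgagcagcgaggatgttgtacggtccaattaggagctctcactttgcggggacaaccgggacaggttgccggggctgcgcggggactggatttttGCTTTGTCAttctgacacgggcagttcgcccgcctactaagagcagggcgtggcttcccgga
Sod1: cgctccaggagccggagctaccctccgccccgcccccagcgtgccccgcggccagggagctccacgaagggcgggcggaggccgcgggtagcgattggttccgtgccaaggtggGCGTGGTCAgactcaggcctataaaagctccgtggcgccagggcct
Srxn1: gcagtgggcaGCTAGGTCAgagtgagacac
In Gstm7 the match TGACAAAGC stands in the window of a second start. The E-box CACGTG, sought by these exact letters alone, was in the window of 1 member, Prdx4 (2.56% of members with a window, against 8.09% of genes). A match is a description of the letters, and no factor binding was measured.

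The libraries held 6933879 to 12187701 recovered reads. Values are the authors' normalized expected counts, in which 1 read is worth 0.0811 to 0.138 in a library. Oma1 had values of 6.74, 5.73 and 6.25 in treated knockout hearts and 6.52, 9.10 and 6.63 in untreated knockout hearts, all below the 22.0, 19.9 and 17.7 in treated wild-type hearts. Cardiomyocyte markers were high in all 9 libraries. Several libraries and groups stood apart in other genes. The atrial markers Myl7, Sln and Myl4 were at or near 0 in all 6 treated libraries, and Myl7 reached 131 to 279 in the untreated ones. The adipocyte markers Adipoq, Cidec and Plin1 were likewise at or near 0 in the treated libraries and summed to 8.12 to 35.0 in the untreated ones. Replicate 3 of the treated wild type had a value of 842 for Nppa, against 51.8 and 86.0 in its other libraries, and 458 for Col1a1, against 158 and 165. The share of reads from the mitochondrial genome separated the groups, at 38.2% to 42.5% in treated knockout, 36.7% to 37.3% in treated wild-type and 33.9% to 34.6% in untreated knockout libraries. Values scaled to genes outside the mitochondrial genome are given below for some of the calls that this scaling changes. In treated against untreated knockout hearts it also added limma calls of Gpx4 (0.25, adjusted p = 0.00368), Sod1 (0.32, 0.00753) and Gstm5 (0.24, 0.0194). In treated wild-type against untreated knockout hearts it ended the calls of Gstk1 (adjusted p = 0.0651), Gstz1 (0.0621) and Prdx5 (0.0538). Replicate 2 of the treated knockout had the largest share and the largest sum of erythroid markers. In whole tissue, fewer cells of a type and less RNA per cell cannot be told apart.

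A gene was tested when its value reached 10 in at least 3 of the 9 libraries, which 38 of the 47 members did. Of these 38, 35 reached it in every library, and Gstt1 passed only through the 3 untreated libraries. The test was limma on log2(value + 1), adjusted over all 8543 genes tested, and a call is an adjusted p under 0.05. In all, 26 of the 38 passed in at least 1 comparison and 12 in none. The 12 were Gclc, Gclm, Gss, Gsr, Gsta4, Gstm2, Gstm5, Gpx3, Prdx2, Prdx6, Nfe2l2 and Nqo1. Per kilobase of principal transcript, Gpx4 had the highest mean level of the 47 in each group, at 394 in treated knockout, 317 in treated wild-type and 357 in untreated knockout hearts.

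**Figure D1:**
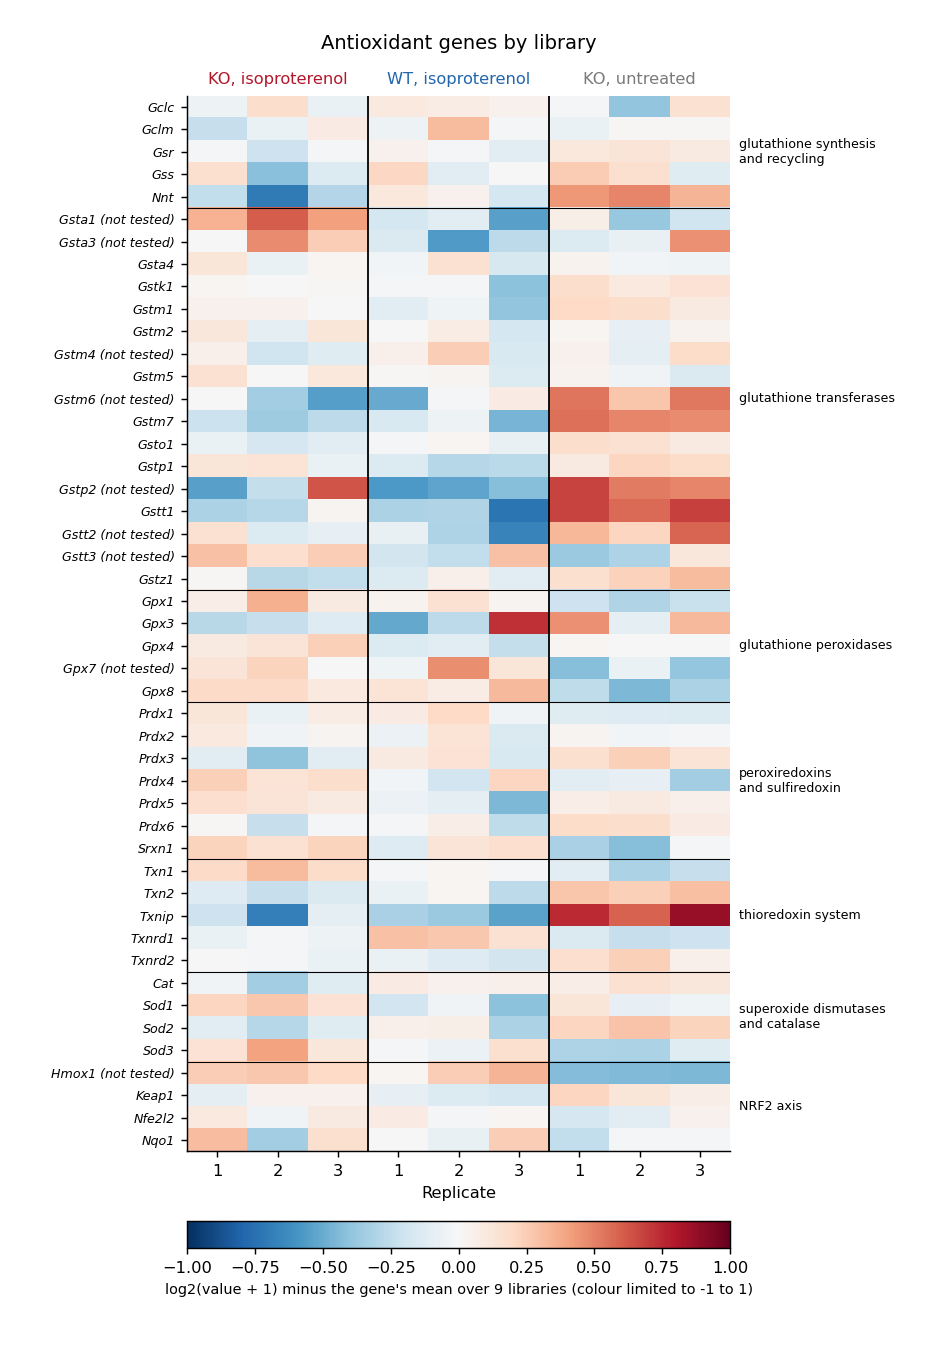
Heat map of the 47 antioxidant genes (rows, by role) in the 9 libraries (columns, by group and replicate), as log2(value + 1) minus each gene's mean over the 9 libraries, with the colour limited to -1 to 1. Txnip, Gstt1, Gstm7 and Nnt stand out as high in the 3 untreated libraries, and the 9 genes below the minimum for testing are marked.

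Treated against untreated knockout hearts differed most in Txnip, Nnt and Gstm7, which fell, in Gstt1, which the minimum for testing selected on its untreated values, and in the mitochondrial enzymes Txn2, Sod2 and Prdx3, which fell by less. Txn1, Gpx8, Sod3, Srxn1, Gpx1 and Prdx4 rose. In this comparison 16 of the 38 members were called (42.1%), while 51.4% of all tested genes were called, so the members' share was below the background. Of the 16, 6 were higher and 10 lower, against 23.9% and 27.4% of all genes. The members' median log2 difference was -0.08, against -0.02 over all tested genes. The split depends on scaling: it was 12 higher and 8 lower when values were scaled to genes outside the mitochondrial genome, 12 and 9 under cyclic loess, and 10 and 11 under quantile scaling. Over all genes the split moved as well, from 2043 higher and 2345 lower to 2834 and 1669 with non-mitochondrial scaling. It was 2192 and 2235 under cyclic loess and 2105 and 2275 under quantile scaling. Of the 16 calls, 12 held under all 26 alternatives tried. Prdx4, Gsto1 and Cat lost the call in at least 1, and Gstt1 was called in the 23 that tested it but fell below the minimum with any untreated library left out. With a pseudocount of 10 the differences of the low genes Gpx8, Gstt1 and Prdx4 shrank to 0.33, -0.46 and 0.22.

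Treated knockout against treated wild-type hearts differed less. Gpx4, Sod1, Prdx5, Gstp1 and Txn1 were higher and Nnt, Txnrd1 and Cat lower in the knockout, 8 of 38 members (21.1%), below the 27.8% of all genes called. The 5 higher and 3 lower calls stand beside 12.0% and 15.9% of all genes. None of the 8 calls held under every alternative. The split was 6 higher and 2 lower under quantile, cyclic loess and non-mitochondrial scaling. Over all genes 1023 higher and 1356 lower became 1165 and 1188, 1158 and 1202, and 1390 and 1065 under these scalings. In this comparison differences followed transcript length over the whole table, divided into 4 classes of like size. Of the 2124 tested genes in the shortest length class (151 to 2035 bases), 450 were called higher and 74 lower, and of the 2124 in the longest length class (4804 to 100404 bases), 144 were higher and 577 lower. The tested members were short, with a median principal transcript of 1603 bases against 3239.5 for all tested genes, and 22 of the 38 lay in the shortest class. In treated wild-type against untreated knockout hearts the trend ran the other way, with 239 higher and 482 lower in the shortest class and 448 higher and 259 lower in the longest. In treated against untreated knockout hearts the shortest class had 550 higher and 374 lower, and the longest 476 higher and 706 lower.

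When each library was corrected for transcript length and GC content, the 5 higher calls were lost. Gpx4 then differed by 0.00 (adjusted p = 0.985), Gstp1 by 0.03 (0.806), Prdx5 by 0.07 (0.56), Txn1 by 0.16 (0.134) and Sod1 by 0.21 (0.0644) on the log2 scale. The corrected data gave calls of 3 of 38 members, all lower in the treated knockout: Nnt at -0.33 (adjusted p = 0.0499), Txnrd1 at -0.21 (0.048) and Gsto1 at -0.19 (0.0439). Over all genes 1570 of 8494 were called under this correction, 767 higher and 803 lower.

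**Figure D2:**
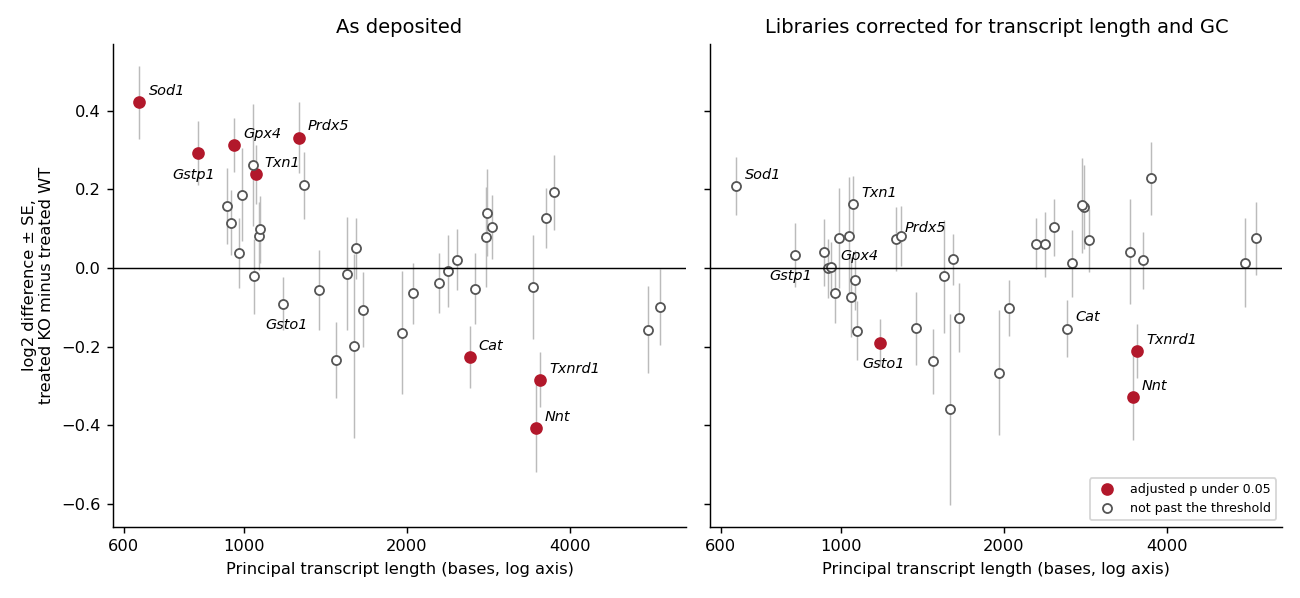
Log2 difference of treated knockout minus treated wild-type hearts (vertical axis, limma estimate ± SE) against principal transcript length in bases (log axis) for the 38 tested members, as deposited (left) and after correction of each library for length and GC (right). Filled points have an adjusted p under 0.05. The 5 filled points above 0 on the left belong to transcripts of at most 1262 bases, and on the right the filled points are Gsto1, Txnrd1 and Nnt, all below 0.

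Treated wild-type against untreated knockout hearts differ in genotype and treatment at once, and this comparison shares libraries with both others, so its values stand beside theirs without a test of likeness. It gave 20 calls among 38 members (52.6%), against 33.2% of all genes. The 7 higher and 13 lower calls stand beside 16.4% and 16.9% of all genes. The count was 8 of 37 tested members without replicate 2 of the untreated knockout, beside 1957 of 8448 genes. Without its replicate 1 it was 11 of 37, beside 2052 of 8435. Without its replicate 3 it was 13 of 37, beside 2284 of 8442. Without replicate 3 of the treated wild type it was 13 of 38, beside 2255 of 8475. At an adjusted p of 0.01 it was 8 of 38, beside 1642 of 8543. The larger share among members therefore did not hold in every setting. Txnip, Gstm7, Gstm1, Txn2, Txnrd1 and Gpx8 were called under all 26 alternatives, and Gstt1 under the 23 that tested it.

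**Figure D3:**
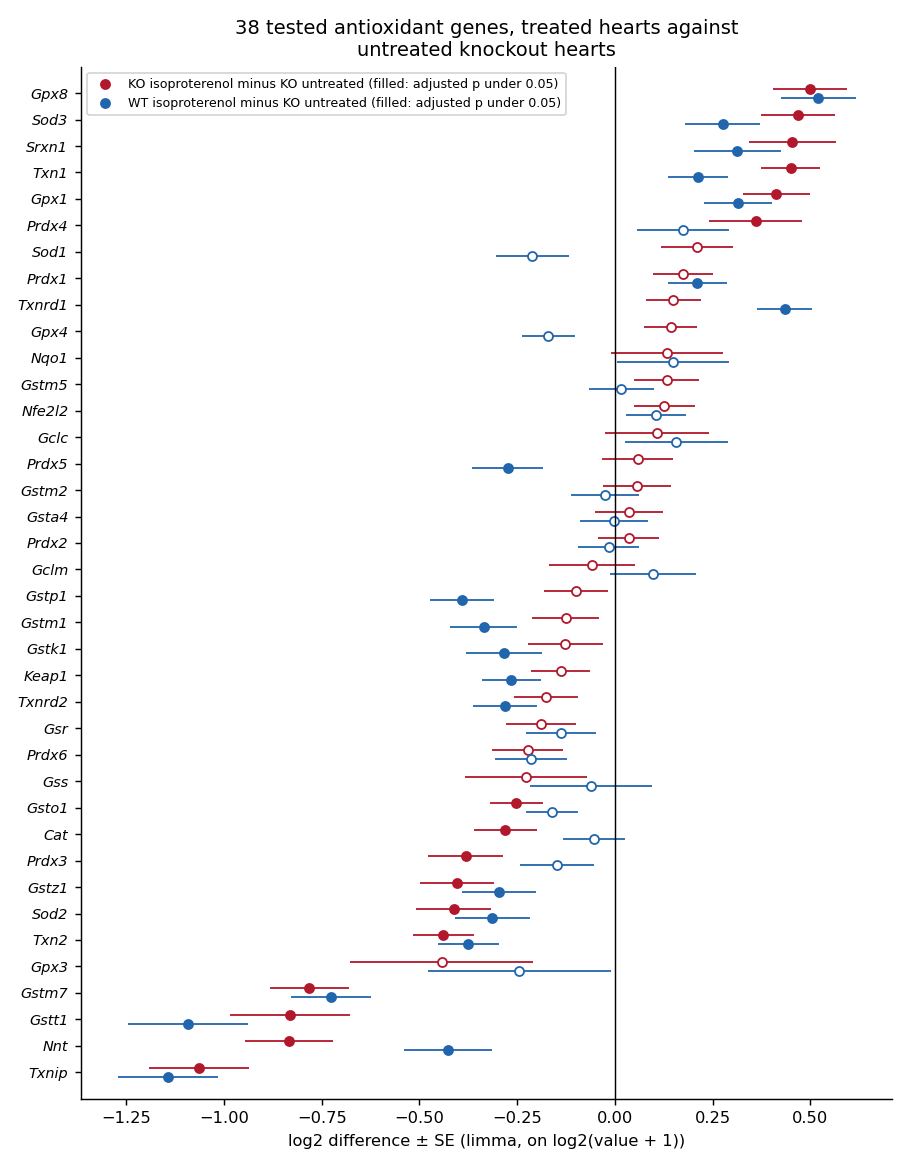
Log2 differences (limma estimate ± SE) of the 38 tested members, sorted by the difference of treated minus untreated knockout hearts (red), with treated wild-type minus untreated knockout hearts beside them (blue). Both sets share the 3 untreated libraries. Txnip lies at the bottom with -1.06 and -1.14, and Gpx8 at the top with 0.50 and 0.52.

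Thioredoxin system. Txnip encodes the protein that binds reduced thioredoxin and blocks it, and that also limits glucose uptake. Its values were 387, 277 and 418 in treated knockout hearts, 357, 345 and 308 in treated wild-type hearts, and 750, 673 and 816 in untreated knockout hearts. All 6 treated libraries lay below all untreated ones. Txnip fell by 1.06 ± 0.13 on the log2 scale (SE, adjusted p = 2.18e-05) in treated against untreated knockout hearts. The 2 treated groups differed by 0.08 (95% interval -0.20 to 0.35). An antisense gene, Gm15441, overlaps Txnip exons, and reads of the pair cannot be told apart without strand.

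Txn1, the cytosolic thioredoxin, moved the other way. It had values of 52.3, 56.9 and 51.8 in treated knockout hearts, 44.9, 46.2 and 44.9 in treated wild-type hearts, and 42.2, 36.4 and 38.7 in untreated knockout hearts, with no overlap between any pair of groups. It rose by 0.45 ± 0.08 in treated against untreated knockout hearts (adjusted p = 0.000301). Its difference of 0.24 from treated wild type (adjusted p = 0.0333) was lost with either of the first 2 treated knockout libraries left out (0.0567 and 0.109). That call was also lost with any treated wild-type library left out (0.0583 to 0.0842), beside the loss under length and GC correction. Txn1 was also called higher in treated wild-type than in untreated knockout hearts. This call ended under TMM (adjusted p = 0.0542), quantile (0.0647) and cyclic loess scaling (0.052). It also ended with any treated wild-type library left out (0.0743 to 0.11), and held under length and GC correction (0.21, 0.0417).

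Txn2, the mitochondrial thioredoxin, had values of 122, 114 and 121 in treated knockout, 127, 135 and 111 in treated wild-type and 162, 158 and 165 in untreated knockout hearts. The treated groups overlapped each other, and both lay below the untreated libraries. Txn2 fell by 0.44 ± 0.08 in treated against untreated knockout hearts (adjusted p = 0.000445), and treated wild-type hearts were 0.37 lower than untreated knockout hearts (0.00266).

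The reductases that recharge them behaved differently from each other. Txnrd1, cytosolic and an NRF2 target, had values of 49.2, 51.3 and 49.7 in treated knockout hearts, 63.5, 62.6 and 57.6 in treated wild-type hearts, and 46.7, 43.8 and 44.6 in untreated knockout hearts. Treated wild type was the high group. Txnrd1 was lower in treated knockout than in treated wild-type hearts by 0.28 ± 0.07 (adjusted p = 0.0107), and it was higher in treated wild-type than in untreated knockout hearts by 0.43 (0.000471). The difference of 0.15 between treated and untreated knockout hearts missed the threshold (0.0897), although their libraries did not overlap. It passed with 3 of the other scalings, at 0.18 with quantile, 0.20 with cyclic loess and 0.26 with non-mitochondrial scaling. Txnrd2, the mitochondrial reductase, had values of 21.7, 21.4 and 20.6 in treated knockout, 20.5, 19.6 and 18.8 in treated wild-type and 24.4, 25.6 and 22.4 in untreated knockout hearts. It was called in treated wild-type against untreated knockout hearts alone (-0.28, adjusted p = 0.0173). That call was lost without replicate 3 of the treated wild type (0.0609) and without replicate 1 or 2 of the untreated knockout (0.0553 and 0.0794), and with DESeq2 (0.0828).

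**Figure D4:**
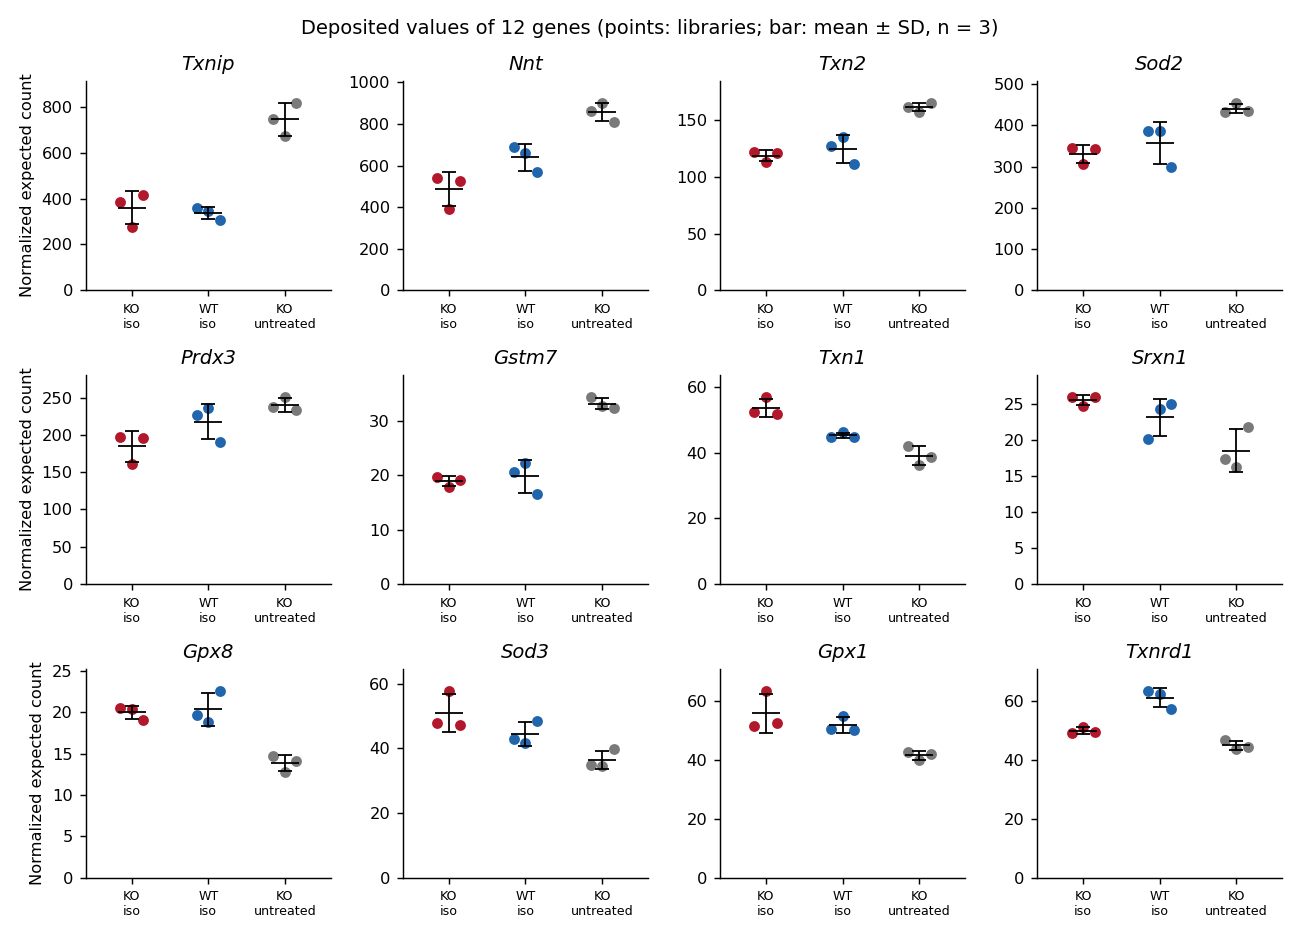
Values of 12 members in each library (points) with mean ± SD (n = 3) for treated knockout, treated wild-type and untreated knockout hearts, left to right in each panel, on axes that start at 0. Txnip, Nnt, Txn2, Sod2 and Gstm7 have every treated library below the untreated ones, Txn1 separates all 3 groups, and Txnrd1 is highest in treated wild type.

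Glutathione synthesis and recycling. The call in this group concerned Nnt, the inner-membrane enzyme that makes mitochondrial NADPH at the expense of the proton gradient. Its values were 541, 392 and 523 in treated knockout hearts, 691, 660 and 568 in treated wild-type hearts, and 863, 899 and 811 in untreated knockout hearts. The groups formed an order with no overlap. Nnt fell by 0.83 ± 0.11 in treated against untreated knockout hearts (adjusted p = 5.42e-05), and treated wild-type hearts were 0.43 lower than untreated knockout hearts (0.0106). This call from treated wild-type hearts ended without replicate 2 of the untreated knockout (-0.39, 0.0509) and under quantile scaling (-0.26, 0.0662). The treated knockout was lower than the treated wild type by 0.41 ± 0.11 (adjusted p = 0.0179). That difference was -0.26 (0.0551) without replicate 2 of the treated knockout, -0.35 (0.0659) without replicate 1 and -0.38 (0.0585) without replicate 2 of the treated wild type. C57BL/6J, the strain of the reference genome, carries a deletion in Nnt, so reads from the exons it lacks may not have been counted.

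The 4 genes that make and reduce glutathione itself passed in no comparison. Gclc, the catalytic subunit of the rate-limiting ligase, had values of 12.75, 15.11 and 12.57 in treated knockout, 14.21, 13.95 and 13.65 in treated wild-type and 13.05, 9.84 and 14.78 in untreated knockout hearts. Gclm, its modifier subunit, had 16.6, 18.7 and 20.8 in treated knockout, 18.9, 24.7 and 19.4 in treated wild-type and 18.7, 19.8 and 19.8 in untreated knockout hearts. All groups overlapped in both genes. For Gclc the 95% interval of the log2 difference between treated and untreated knockout hearts ran from -0.18 to 0.39, and for Gclm from -0.30 to 0.18. Gss, the second enzyme of synthesis, was measured at low values of 7.92 to 13.2, and Gsr, the reductase, at 15.1 to 19.4. Gsr was lower in all 6 treated libraries than in the untreated ones, by 0.19 (adjusted p = 0.0915) in the knockout.

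Glutathione S-transferases. These enzymes attach glutathione to lipid peroxidation products and foreign compounds, and 10 of the 17 members were tested. In treated against untreated knockout hearts 4 were called, all lower: Gstt1, Gstm7, Gstz1 and Gsto1, against 27.4% of all genes called lower. Gstm7 had values of 19.7, 17.8 and 19.1 in treated knockout, 20.6, 22.3 and 16.4 in treated wild-type and 34.3, 32.7 and 32.3 in untreated knockout hearts. It fell by 0.78 ± 0.10 in the treated knockout (adjusted p = 3.99e-05), with both treated groups below the untreated one. Gstt1 had 6.63, 6.77 and 8.68 in treated knockout, 6.60, 6.69 and 4.71 in treated wild-type and 14.1, 13.0 and 14.2 in untreated knockout hearts. It had to be high in the untreated group to be tested, so its fall of 0.83 ± 0.15 (adjusted p = 0.000594) is a description of a gene selected on that group.

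Gstz1, which also degrades tyrosine, had values of 25.3, 20.4 and 21.0 in treated knockout, 22.7, 25.9 and 23.2 in treated wild-type and 28.0, 29.5 and 31.4 in untreated knockout hearts. It fell by 0.40 ± 0.09 in treated against untreated knockout hearts (adjusted p = 0.00308). Gsto1, a thioltransferase-like member, had 73.4, 68.6 and 71.4 in treated knockout, 76.2, 78.3 and 73.0 in treated wild-type and 87.0, 85.7 and 81.9 in untreated knockout hearts. Its fall of 0.25 (adjusted p = 0.00673) shrank to 0.15 (0.0586) with non-mitochondrial scaling.

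In treated knockout against treated wild-type hearts 1 of the 10 was called, Gstp1, against 27.8% of all genes. Gstm1, not called there, was called higher under quantile (0.28, adjusted p = 0.0238), cyclic loess (0.29, 0.0129) and non-mitochondrial scaling (0.26, 0.0233). It was also called without replicate 2 of the treated wild type (0.28, 0.0471). Gstp1, the pi-class enzyme, had values of 40.7, 41.3 and 35.7 in treated knockout, 34.0, 30.6 and 30.9 in treated wild-type and 39.98, 43.5 and 42.7 in untreated knockout hearts. Treated wild type was the low group and the knockout groups overlapped. Its difference of 0.29 ± 0.08 between the treated groups (adjusted p = 0.0185) was lost under length and GC correction and without replicate 1 or 2 of the treated knockout (0.0609 and 0.0648) or replicate 2 of the treated wild type (0.0624). In treated wild-type against untreated knockout hearts 6 of the 10 were called, all lower, against 16.9% of all genes called lower. They were Gstm7 at -0.73, Gstp1 at -0.39, Gstm1 at -0.34, Gstz1 at -0.30, Gstk1 at -0.28 and Gstt1 at -1.09, which was selected on the untreated group here too. Under length and GC correction Gstp1 was at -0.24 (adjusted p = 0.0384). The Gstk1 and Gstz1 calls ended with several left-out libraries (highest adjusted p of 0.149 and 0.0951). Gstm2, Gstm5 and Gsta4 passed in no comparison, at values of 54.4 to 67.2, 25.6 to 31.5 and 33.6 to 42.1 over the 9 libraries. The Gstm genes on chromosome 3, the Gstt genes on chromosome 10 and the Gstp pair on chromosome 19 are close copies, and the counting may have divided reads among them.

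Of the 9 untested members, 7 were transferases. In treated against untreated knockout hearts 4 of the 9 had groups apart and higher (Hmox1, Gpx7, Gstt3 and Gsta1) and 2 apart and lower (Gstt2 and Gstm6), while among tested genes 29.2% lay apart and higher and 33.4% apart and lower. In treated knockout against treated wild-type hearts 2 of the 9 lay apart and higher and 0 apart and lower (20% and 23.6% of tested genes). In treated wild-type against untreated knockout hearts 2 lay apart and higher and 4 apart and lower (23.4% and 24.1%). Gsta1 had values of 2.28, 2.92 and 2.43 in treated knockout, 1.28, 1.38 and 0.77 in treated wild-type and 1.69, 0.98 and 1.24 in untreated knockout hearts. Gsta3 lay apart from treated wild type, at 3.52, 5.32 and 4.38 in treated knockout against 3.12, 2.08 and 2.79 in treated wild-type hearts. Gstt3 had 4.97, 4.48 and 4.79 in treated against 2.78, 2.95 and 4.28 in untreated knockout hearts. The falls lay at the same low level. Gstt2 had 4.66, 3.65 and 3.81 in treated knockout, 3.85, 3.11 and 2.21 in treated wild-type and 5.44, 4.92 and 6.63 in untreated knockout hearts. Gstm6 had 0.93, 0.52 and 0.32 in treated knockout, 0.37, 0.92 and 1.06 in treated wild-type and 1.81, 1.35 and 1.80 in untreated knockout hearts. Gstp2 had 1.19, 1.27 and 1.44 in treated wild-type against 4.23, 3.69 and 3.59 in untreated knockout hearts. Some of these values rest on fewer than 30 reads a library, and the seventh, Gstm4, overlapped between all groups at 7.61 to 10.7.

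Glutathione peroxidases. Gpx1, the cytosolic and mitochondrial peroxidase, and Gpx8, a peroxidase of the endoplasmic reticulum membrane, rose in treated against untreated knockout hearts. Gpx1 had values of 51.5, 63.4 and 52.6 in treated knockout, 50.5, 55.0 and 50.2 in treated wild-type and 42.5, 39.8 and 42.1 in untreated knockout hearts. Every treated library was above every untreated one. The rise was 0.41 ± 0.09 in the knockout (adjusted p = 0.00137). Treated wild-type hearts were 0.31 higher than untreated knockout hearts (0.0129), a call that ended without replicate 2 of either group (0.0514 and 0.057). Under length and GC correction the difference was 0.49 (0.000405).

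Gpx8 had values of 20.5, 20.4 and 19.1 in treated knockout, 19.7, 18.8 and 22.6 in treated wild-type and 14.7, 12.8 and 14.1 in untreated knockout hearts. The treated groups overlapped and lay above the untreated one, by 0.50 ± 0.09 in the knockout (adjusted p = 0.0007) and 0.52 ± 0.09 in the wild type (0.00109). Its relative Gpx7, also of the endoplasmic reticulum, was below the minimum for testing. It had 7.77, 8.34 and 6.98 in treated knockout, 6.79, 10.0 and 7.69 in treated wild-type and 4.95, 6.64 and 5.11 in untreated knockout hearts, again with every treated library above every untreated one. With no filter it differed by 0.41 between the knockout groups (adjusted p = 0.045).

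Gpx4, which reduces lipid peroxides in membranes and restrains ferroptosis, had values of 363, 371 and 400 in treated knockout, 310, 314 and 288 in treated wild-type and 344, 342 and 341 in untreated knockout hearts. The 3 groups did not overlap. The treated knockout exceeded the treated wild type by 0.31 ± 0.07 (adjusted p = 0.00563), and by 0.00 (0.985) under length and GC correction. Gpx3, the secreted plasma peroxidase, had 159, 165 and 176 in treated knockout, 135, 161 and 321 in treated wild-type and 266, 180 and 243 in untreated knockout hearts. Replicate 3 of the treated wild type was the highest of all 9. Without that library Gpx3 was lower in treated than in untreated knockout hearts by 0.44 (adjusted p = 0.00462, against 0.128 with it), and treated wild-type hearts were 0.62 lower than untreated knockout hearts (0.00273, against 0.452).

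Peroxiredoxins and sulfiredoxin. Prdx3 is the main peroxidase of the mitochondrial matrix. It had values of 198, 161 and 196 in treated knockout, 226.5, 236 and 191 in treated wild-type and 237, 250.6 and 233 in untreated knockout hearts. It fell by 0.38 ± 0.10 in treated against untreated knockout hearts (adjusted p = 0.00461), and by 0.22 (0.0209) under cyclic loess. Against the treated wild type it was 0.23 lower (0.0822), and 0.33 lower (0.0152) without replicate 3 of the treated wild type.

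Srxn1, sulfiredoxin, restores peroxiredoxins that peroxide has overoxidized. Its values were 25.9, 24.7 and 25.9 in treated knockout, 20.2, 24.2 and 25.0 in treated wild-type and 17.4, 16.2 and 21.8 in untreated knockout hearts. It rose by 0.45 ± 0.11 in treated against untreated knockout hearts (adjusted p = 0.00395). Its difference of 0.31 between treated wild-type and untreated knockout hearts, whose libraries overlapped, had an adjusted p of 0.0435 and lost the call in 16 of 26 alternatives.

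Prdx4, of the endoplasmic reticulum, had values of 16.7, 15.4 and 15.9 in treated knockout, 13.7, 12.1 and 16.3 in treated wild-type and 12.9, 13.2 and 10.8 in untreated knockout hearts. Its rise of 0.36 ± 0.12 in the knockout (adjusted p = 0.021) was lost under length and GC correction (0.30, 0.0641), without replicate 3 of the untreated knockout (0.28, 0.0892) and without replicate 1 of the treated knockout (0.33, 0.0656). Prdx5, found in mitochondria, peroxisomes and cytosol, had 232, 226 and 220 in treated knockout, 198, 193 and 151 in treated wild-type and 217, 220 and 215 in untreated knockout hearts. Treated wild type was low, by 0.33 ± 0.09 against treated knockout (adjusted p = 0.0171). Without replicate 3 of the treated wild type that difference was 0.21 (0.0296). Treated wild-type hearts were 0.27 lower than untreated knockout hearts (0.033), which became 0.15 (0.106) without that library and 0.09 (0.446) under length and GC correction. Prdx5 exons overlap Trmt112.

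Prdx1, cytosolic, had values of 248.8, 218 and 241 in treated knockout, 242, 262 and 223 in treated wild-type and 210, 209 and 208 in untreated knockout hearts. All treated libraries exceeded all untreated ones. The difference between the knockout groups, 0.17, missed the threshold (adjusted p = 0.0717) and passed in 11 of 26 alternatives, among them non-mitochondrial scaling (0.28, 0.00326) and length and GC correction (0.20, 0.0208). The difference of 0.21 between treated wild-type and untreated knockout hearts (adjusted p = 0.0476) was lost in 13 of 26 alternatives. Prdx2 and Prdx6 passed in no comparison, at values of 203 to 246 and 110 to 150 over the 9 libraries. Prdx6 was lower by 0.22 in treated against untreated knockout hearts (adjusted p = 0.0547) and passed in 7 of 26 alternatives.

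Superoxide dismutases and catalase. Sod2, the manganese enzyme of mitochondria, had values of 346, 306 and 342 in treated knockout, 386, 387 and 298 in treated wild-type and 433, 454 and 436 in untreated knockout hearts. Treated libraries of both genotypes were below the untreated ones. It fell by 0.41 ± 0.10 in treated against untreated knockout hearts (adjusted p = 0.0028), by 0.25 (0.0129) under quantile scaling and by 0.22 (0.0173) under cyclic loess. The difference of -0.31 between treated wild-type and untreated knockout hearts (0.0222) did not pass without replicate 3 of the treated wild type (0.0645) or any untreated library (0.0529 to 0.083). Between the treated groups Sod2 differed by -0.10 (0.458), and by -0.22 (0.0319) without replicate 3 of the treated wild type.

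Sod3, the enzyme secreted into the vessel wall and matrix, had values of 48.0, 57.7 and 47.1 in treated knockout, 42.9, 41.6 and 48.5 in treated wild-type and 34.9, 34.7 and 39.8 in untreated knockout hearts. It rose by 0.47 ± 0.10 in treated against untreated knockout hearts (adjusted p = 0.00117). Treated wild-type hearts were 0.28 higher than untreated knockout hearts (0.0398), a call lost in 11 of 26 alternatives. Sod1, cytosolic, had 147, 153 and 140 in treated knockout, 111, 123 and 94.96 in treated wild-type and 137, 120 and 123 in untreated knockout hearts. It was higher in treated knockout than in treated wild-type hearts by 0.42 ± 0.09 (adjusted p = 0.00617). With a principal transcript of 641 bases it was the shortest of the tested members.

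Cat, catalase, had values of 172, 138 and 162 in treated knockout, 186, 181 and 182 in treated wild-type and 185, 196 and 191 in untreated knockout hearts. The treated knockout lay below both other groups. Its fall of 0.28 ± 0.08 in treated against untreated knockout hearts (adjusted p = 0.00973) was lost under cyclic loess (-0.13, 0.11) and non-mitochondrial scaling (-0.17, 0.063). The difference of -0.23 from treated wild type (adjusted p = 0.049) was lost in 22 of 26 alternatives. It was -0.14 (0.163) without replicate 2 of the treated knockout.

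NRF2 axis. None of the 3 tested genes was called in treated knockout hearts against either other group. By unadjusted limma p under 0.05, edgeR, voom and DESeq2 the counts were also 0. Nfe2l2, which encodes NRF2, had values of 55.6, 50.7 and 55.3 in treated knockout, 55.2, 51.2 and 52.8 in treated wild-type and 46.3, 48.2 and 53.5 in untreated knockout hearts. Its difference between treated and untreated knockout hearts was 0.13 (95% interval -0.04 to 0.29), and it was called with non-mitochondrial scaling (0.23, adjusted p = 0.0213). Keap1 had 37.2, 41.0 and 41.0 in treated knockout, 37.6, 36.1 and 35.1 in treated wild-type and 46.3, 43.4 and 41.7 in untreated knockout hearts. It was lower in treated wild-type than in untreated knockout hearts by 0.27 (adjusted p = 0.0155), a call lost under length and GC correction (0.0866) and without replicate 1 of the untreated knockout (0.0709).

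Nqo1, a quinone reductase and standard NRF2 target, varied within groups, with values of 42.9, 26.9 and 38.6 in treated knockout, 34.3, 32.6 and 41.1 in treated wild-type and 28.9, 34.1 and 34.1 in untreated knockout hearts. Without replicate 2 of the treated knockout it was higher in treated than in untreated knockout hearts by 0.33 (adjusted p = 0.0296, against 0.456 with it). Hmox1, heme oxygenase, had 9.33, 9.48 and 9.0 in treated knockout, 7.79, 9.34 and 10.0 in treated wild-type and 5.44, 5.41 and 5.39 in untreated knockout hearts, below the minimum for testing. Every treated library exceeded every untreated one, and with no filter the knockout groups differed by 0.68 (adjusted p = 0.000515).

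Further pathway genes, in 7 lists, were counted in the same fits. In treated against untreated knockout hearts 47 of their 84 tested genes were called (56.0%), near the 51.4% of all genes. Of all genes, 23.9% were higher and 27.4% lower. The share differed between lists, from 4 of 10 glutaredoxin and related genes to 10 of 13 scavengers and metal-binding genes. No list was tested as a set. Among 9 tested genes of glutathione synthesis and export 1 was higher and 5 lower. The lower ones included the mitochondrial carriers Slc25a11 (-0.50, adjusted p = 0.000287), Slc25a39 (-0.41, 0.000395), a carrier that brings glutathione into mitochondria, and Slc25a10 (-0.62, 0.00115), while the exporter Abcc4 rose by 0.42 (0.00416). Slc25a10 and Ggct passed the minimum only through the 3 untreated libraries, which selects genes that are high there. Among 10 glutaredoxins, microsomal transferases and glyoxalase genes 4 were called, all lower: Mgst3 (-0.64), Mgst1 (-0.55), Glrx (-0.51) and Glo1 (-0.34). Of 12 genes of NADPH supply 2 were higher and 5 lower. Me1 fell by 0.73, Me3 by 0.65 and Idh2, the mitochondrial isocitrate dehydrogenase, by 0.44. Aldh1l2, at -1.10, was also selected on the untreated libraries.

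Of 15 thioredoxin-fold and methionine-repair genes 3 were higher and 6 lower, against 23.9% and 27.4% of all genes. Among them Sesn1 fell by 0.90 (adjusted p = 1.05e-06) and Arrdc4, an alpha-arrestin of the Txnip family, rose by 0.52 (0.00152). NRF2 partners and further targets were split, 3 higher and 5 lower of 18, with Ftl1, ferritin light chain, rising by 0.45 and Ces1d falling by 1.11. Of 13 scavengers and metal-binding genes 4 were higher and 6 lower. Metallothionein Mt2 rose by 1.31 (7.33e-05), Mt1 by 0.69 and the copper chaperone Atox1 by 0.63, and Ucp3 fell by 1.21. Among 7 sources of superoxide and peroxide 1 was higher and 2 lower, with Maob falling by 0.75.

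In treated wild-type against untreated knockout hearts 36 of the 84 further pathway genes tested were called (42.9%), against 33.2% of all genes. Fewer of these genes differed between the treated groups, 20 of 84 tested (23.8%), against the 27.8% of all genes. In glutathione synthesis and export 0 of 9 were called by limma, edgeR, voom or DESeq2, and 0 at an unadjusted limma p under 0.05. NADPH supply had 2 higher and 3 lower of 12. Tkt was higher in treated knockout by 0.53 (adjusted p = 0.00877), Me1 lower by 0.35 (0.0126) and Aldh1l2 lower by 0.58 (0.0156). Pgls, higher by 0.34 (0.0108), turned to -0.07 (0.659) under length and GC correction. Under the same correction Aldh1l2, whose values lay below the minimum in all treated libraries, did not pass (-0.44, 0.0568). The ferroxidase Cp and Oxr1 were lower by 0.43 and 0.39, while Mt1 was higher by 0.50, which became 0.14 (0.246) under length and GC correction. Of 15 thioredoxin-fold and methionine-repair genes 1 was higher and 3 lower, with Msrb3 at -0.40. Of 7 sources of superoxide and peroxide 2 were higher and 1 lower, with Xdh at 0.41. Over all genes 12.0% were higher and 15.9% lower. Pon3 was lower by 0.47. The calls of Msrb3, Xdh, Pon3, Cp, Oxr1 and Tkt held in all 25 alternatives that kept the threshold of 0.05.

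Cell markers moved with several of these results. All 8 endothelial markers rose in treated against untreated knockout hearts, summing to 1822 to 2223 in treated knockout, 1412 to 1556 in treated wild-type and 995 to 1101 in untreated knockout libraries, and 7 of the 8 were also higher in treated knockout than in treated wild-type hearts. Of 6 tested fibroblast markers 4 were higher in treated against untreated knockout hearts. Smooth muscle and pericyte markers, 5 of 6 higher, summed to 1000 to 1176 in treated and 636 to 661 in untreated knockout libraries. Of 4 tested macrophage markers 2 were higher. Over all tested genes 23.9% were higher in treated against untreated knockout hearts and 12.0% in treated knockout against treated wild-type hearts. Between the treated groups 2 fibroblast markers were higher, 1 smooth muscle and pericyte marker was lower, and 2 cardiomyocyte markers were higher and 2 lower. The rises of Sod3, Gpx8, Gpx1, Txn1 and Srxn1 in treated against untreated knockout hearts ran alongside those of the endothelial, fibroblast, smooth muscle and pericyte markers. The part of vessel cells in the rises of these 5 genes was not tested. The falls against the untreated group ran alongside all 4 atrial markers, of which Sln was at 0 in 5 of 6 treated libraries. The part of atrial and fat tissue in the falls was not tested. Cardiomyocyte markers summed to 38008 to 40530 in treated knockout, 36189 to 41446 in treated wild-type and 40585 to 44432 in untreated knockout libraries, with 1 of the 7 called lower in treated against untreated knockout hearts.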

How the data were processed

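RNA was extracted with TRIzol and silica columns and made into libraries with a TruSeq kit, per the labels' protocols. The authors trimmed reads with cutadapt and estimated expression with RSEM 1.17 on GRCm38, and limma is also named, per the submitters' processing notes. For the aligner, strand setting and normalization: not given in the sources used here. Signal values as deposited are the authors' normalized expected counts, and each library's values are whole multiples of 1 read within 0.02.

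Members and gene lists were chosen with earlier results of these data known. Testing required values of 10 or more in 3 of 9 libraries and was done with limma 3.58.1 (R 4.3.3) on log2(value + 1), 1 mean per group over all 9 libraries, with a mean-dependent variance trend and Benjamini-Hochberg adjustment over 8543 genes. This scale understates changes of low genes. The alternatives were edgeR 4.0.16, voom and DESeq2 1.42.0 on recovered reads, other scalings, filters and pseudocounts, left-out libraries, and library-wise splines of 5 degrees of freedom that remove trends with transcript length and GC. The scripts were tested on simulated data. Genes named with library values were a fixed set of central enzymes, called members by smallest p, and untested members with groups apart, and up to 4 called genes per further list. Genes with exons that overlap others, and close paralogs, may share reads.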

Additional observations from a re-analysis of the deposited data

How the results depend on the processing

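In treated knockout against treated wild-type hearts the 8 member calls became 3 under length and GC correction, 0 when the correction was joined to a replicate block, and 2 at an adjusted p of 0.01, and they ranged from 4 to 8 with one library left out. Beside that 0, limma gave 6 members at an unadjusted p under 0.05 (2 higher and 4 lower), and edgeR, voom and DESeq2 each called 7 members without correction or block. Over all genes the 2379 calls became 1570, 1392 and 959 under the same 3 settings and 1336 to 2382 with a library left out. In treated wild-type against untreated knockout hearts the 20 member calls became 13 with the correction and block and 8 at an adjusted p of 0.01, and ranged from 8 to 22 with a library left out. The 2839 calls over all genes became 2485 with the correction and block, 1642 at 0.01 and 1957 to 3087 with a library left out. In treated against untreated knockout hearts the 16 member calls ranged from 14 to 20 and the 4388 over all genes from 3574 to 4605 with a library left out. The cause of these changes was not tested.

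Of 114 comparisons of a tested member, 44 were called. In 18 of the 44 the call and direction held under all 26 alternatives. The 2 calls of Gstt1 held in the 23 that tested it. In 24 the call was lost in at least 1, and in 4 in at least 13. No call turned its direction. Of the 70 others, 21 were called somewhere. Correlations of deviations from the group means ran from -0.14 to 0.18 for 9 same-numbered pairs, 3 of them over 0.1. For 18 other-numbered pairs they ran from -0.25 to 0.23, 3 of them over 0.1. The deviations within a group sum to 0, so these values cannot decide whether replicate numbers pair the libraries. A replicate block gave 6, 16 and 18 member calls in treated knockout against treated wild type, treated against untreated knockout and treated wild type against untreated knockout. Genes below a value of 10 are limited by depth.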

Other observations

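The members were also grouped by where their proteins work, a grouping made after the values were seen and given without a test. For the mitochondrial matrix or inner membrane 5 genes were taken, Sod2, Prdx3, Txn2, Txnrd2 and Nnt. Gpx1 and Prdx5, found in mitochondria and also elsewhere in the cell, were left out. Gpx1 was called higher in both comparisons with untreated hearts. Prdx5 was not called in treated against untreated knockout hearts and was lower in treated wild-type against untreated knockout hearts. The share called among the 5 therefore depends on which genes were taken. The log2 differences of the 5 in treated against untreated knockout hearts were -0.83 to -0.18, with 4 of 5 called lower, against 27.4% of all genes. In treated wild-type against untreated knockout hearts they ran from -0.43 to -0.15, again with 4 of 5 called lower, against 16.9% of all genes, and both comparisons share the untreated libraries. Between the treated groups 1 of the 5, Nnt, was called. Of the 5 genes of the endoplasmic reticulum or secreted space, Prdx4, Gpx7, Gpx8, Sod3 and Gpx3, 4 were tested. In treated against untreated knockout hearts 3 were called higher, Gpx8, Sod3 and Prdx4, against 23.9% of all genes, and Gpx3 lay at -0.44.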
